A study of Rattus norvegicus with 20 samples.

Results

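The Rab, Arf and Arl genes encode small GTPases that direct membrane traffic, and they are described here in the amygdala's central nucleus, as measured in rats of an alcohol-preferring line. Members were all genes whose single symbol in the array's probe-to-gene table was Rab followed by a digit, Arf1 to Arf6, or Arl followed by a digit, and 16 symbols of effectors and interactors such as the Rab11fip and Rab3gap genes were left out. Selected on these symbols, the members were 71 of the 14217 genes on the array: 56 Rab, 6 Arf and 9 Arl genes. The probe set of each gene was chosen by its measured level, as the one with the highest mean over all 20 arrays, so levels are given as description. The difference between ethanol and water did not enter that choice.

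These proteins act as switches that hold GDP when idle and GTP when active. Exchange factors load GTP and recruit the protein to a membrane, where it binds effectors such as tethers, motors and coats, and GTPase-activating proteins end the signal. Rab proteins mark particular organelles and vesicles, Arf proteins recruit coats at the Golgi apparatus and plasma membrane, and several Arl proteins act at the Golgi, cilia and lysosomes. In neurons they take part in synaptic vesicle and dense-core granule release and in receptor recycling, and in oligodendrocytes in the delivery of myelin membrane.

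Alcohol-preferring (P) rats were bred over generations to drink alcohol by choice. During adolescence the 10 ethanol animals had access to 15% and 30% ethanol solutions and the 10 water animals had only water, with 1 Affymetrix array per animal. The comparison asked how transcript levels in this nucleus differ after adolescent drinking. All values are log2 probe set summaries, and a difference of 1 is a 2-fold change in signal. The tissue was bulk, so fewer cells of a type and less RNA per cell cannot be told apart.

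Array medians were 7.92 to 7.97, and the correlation of array pairs was 0.977 to 0.997. The arrays of ethanol animal 5 and water animals 15 and 18 stood apart, with mean correlations below 0.990. The accession order forms 3 runs of 4, 4 and 2 arrays per group, which no label names as a batch, and differences within each run are given below in that order. Markers of central amygdala neurons were measured on every array: the GABA-synthesising enzyme Gad1 ranged from 14.04 to 14.44, the opioid precursor Penk from 13.48 to 14.94 and the kinase gene Prkcd from 8.65 to 10.37. Of the 14 markers listed for this nucleus, 13 passed the filter on low values (Dlx6 did not). Of the 8 cortical markers 4 passed, among them the glutamate transporter Slc17a7 from 6.28 to 9.68 and Neurod6 from 5.42 to 9.52, and 4 did not, among them Tbr1 and Emx1. The cortical score ran from 7.40 to 9.60 with ethanol and from 7.32 to 9.62 with water, and its part in the results was not tested.

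Of the 71 members, 62 passed the filter, which kept probe sets with a mean above log2 7.14. Below it were Arl9, Arl11, Rab19, Rab20, Rab25, Rab37, Rab38, Rab39a and Rab43, whose ethanol minus water differences ran from -0.07 to 0.12. Rab17, a GTPase of polarised epithelial cells, lay just inside the filter with a mean of 7.14, and Rab20 just outside with 6.74. The 62 measured members comprised 7 of regulated secretion, 14 of the endoplasmic reticulum (ER) and Golgi, 7 of early endosomes, 13 of recycling and exocytic traffic, 8 of late endosomes and lysosomes, 6 Arf and 7 Arl genes.

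Promoters of 57 of the 71 members were found in RefSeq (build GRCr8, 250 bases before to 50 after the start, written 5′ to 3′ on the gene's strand). Those of 4 members on which the results below turn are shown, with capitals marking a GC box (GGGCGG, or CCGCCC on the other strand) or an E-box of the kind found in lysosomal genes (CACGTG). Rab7b had the smallest p among the members in the ethanol comparison and lies at chr13:45673195-45673494 (plus strand). Rab21 at chr7:52814894-52815193 and Rab10 at chr6:32039505-32039804 (both minus strand) had the smallest p for a rise with myelin transcripts. Arf3 at chr7:131790930-131791229 (minus strand) ran opposite to myelin and holds none of these letters.
Rab7b: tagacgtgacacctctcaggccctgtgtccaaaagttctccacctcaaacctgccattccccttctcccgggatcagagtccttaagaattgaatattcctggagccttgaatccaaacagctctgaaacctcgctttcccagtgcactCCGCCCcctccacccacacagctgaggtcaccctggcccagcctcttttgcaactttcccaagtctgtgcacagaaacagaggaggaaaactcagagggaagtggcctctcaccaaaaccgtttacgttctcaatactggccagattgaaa
Rab21: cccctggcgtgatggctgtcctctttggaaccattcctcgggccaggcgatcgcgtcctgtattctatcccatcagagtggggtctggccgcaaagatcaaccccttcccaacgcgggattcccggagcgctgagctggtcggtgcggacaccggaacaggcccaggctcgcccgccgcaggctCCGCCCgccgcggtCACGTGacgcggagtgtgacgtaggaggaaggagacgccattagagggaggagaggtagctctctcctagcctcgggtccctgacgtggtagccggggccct
Rab10: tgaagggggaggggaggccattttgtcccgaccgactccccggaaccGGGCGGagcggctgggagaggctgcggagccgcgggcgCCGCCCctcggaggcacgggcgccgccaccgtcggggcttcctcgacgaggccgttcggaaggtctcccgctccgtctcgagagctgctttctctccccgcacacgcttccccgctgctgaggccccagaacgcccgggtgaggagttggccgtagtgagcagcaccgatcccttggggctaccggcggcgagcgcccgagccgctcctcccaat
Arf3: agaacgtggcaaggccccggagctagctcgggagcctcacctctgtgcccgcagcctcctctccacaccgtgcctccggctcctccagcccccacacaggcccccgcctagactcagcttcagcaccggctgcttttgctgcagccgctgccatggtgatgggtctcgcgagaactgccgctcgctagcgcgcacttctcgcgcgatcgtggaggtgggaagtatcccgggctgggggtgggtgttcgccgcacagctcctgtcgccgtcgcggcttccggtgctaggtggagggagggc
The GC box, on either strand, was in 45 of the 57 promoters (78.9%), against 34.9% of all 27457 promoters and 64.2% of the 8496 whose gene passed the filter. CACGTG, which reads the same on both strands, was in 6 of 57 (10.5%, against 6.65% and 9.78%). The core letters of SOX factor sites, ACAAAG, were in 3 of 57 (5.26%, against 18.3% and 12.8%), and the cAMP response element TGACGTCA in 1 of 57 (1.75%, against 1.91% and 3.33%). The 57 include members below the filter. Over the 51 that passed it, the GC box was in 80.4%, CACGTG in 9.80%, ACAAAG in 5.88% and TGACGTCA in 0%. Rab21 holds CACGTG and a GC box that lie close together, and Rab10 holds 2 GC boxes. Rab7b was among the members poor in G and C, with 6 CpG dinucleotides and 52%, against medians of 21 and 63.7% over the members. Rab14 was lower on both measures (4 and 32.3%), and Rab17 was close to Rab7b (7 and 54%). These matches describe the letters in this window only.

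No member passed the test of ethanol against water. Limma called 0 of the 62 at an adjusted p under 0.05, with a smallest adjusted p of 0.174, and it called 4 of all 18625 probe sets (0.0215%). At an unadjusted p under 0.05 there were 6 members (9.68%), 3 higher and 3 lower, against 12.8% of all probe sets (7.37% higher and 5.48% lower). With 1 probe set per gene, as for the members, the background was 12.1% (6.33% higher and 5.77% lower), so the share of members was not above it. The groups overlapped for every measured member, and 0.0268% of all probe sets had groups without overlap. Higher with ethanol by this weaker criterion were Rab26, Rab3d and Rab1a, and lower were Rab7b, Rab31 and Rab13. The difference was positive for 40 of 62 members (64.5%, against 57.8% of all probe sets and 56.7% with 1 per gene), with a median of 0.02 over the members and over all probe sets. With cyclic loess scaling 32 of the 62 members were positive. Over all probe sets the split at an unadjusted p under 0.05 was then 972 higher and 1309 lower, against 1373 and 1020 as deposited.

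**Figure D1:**
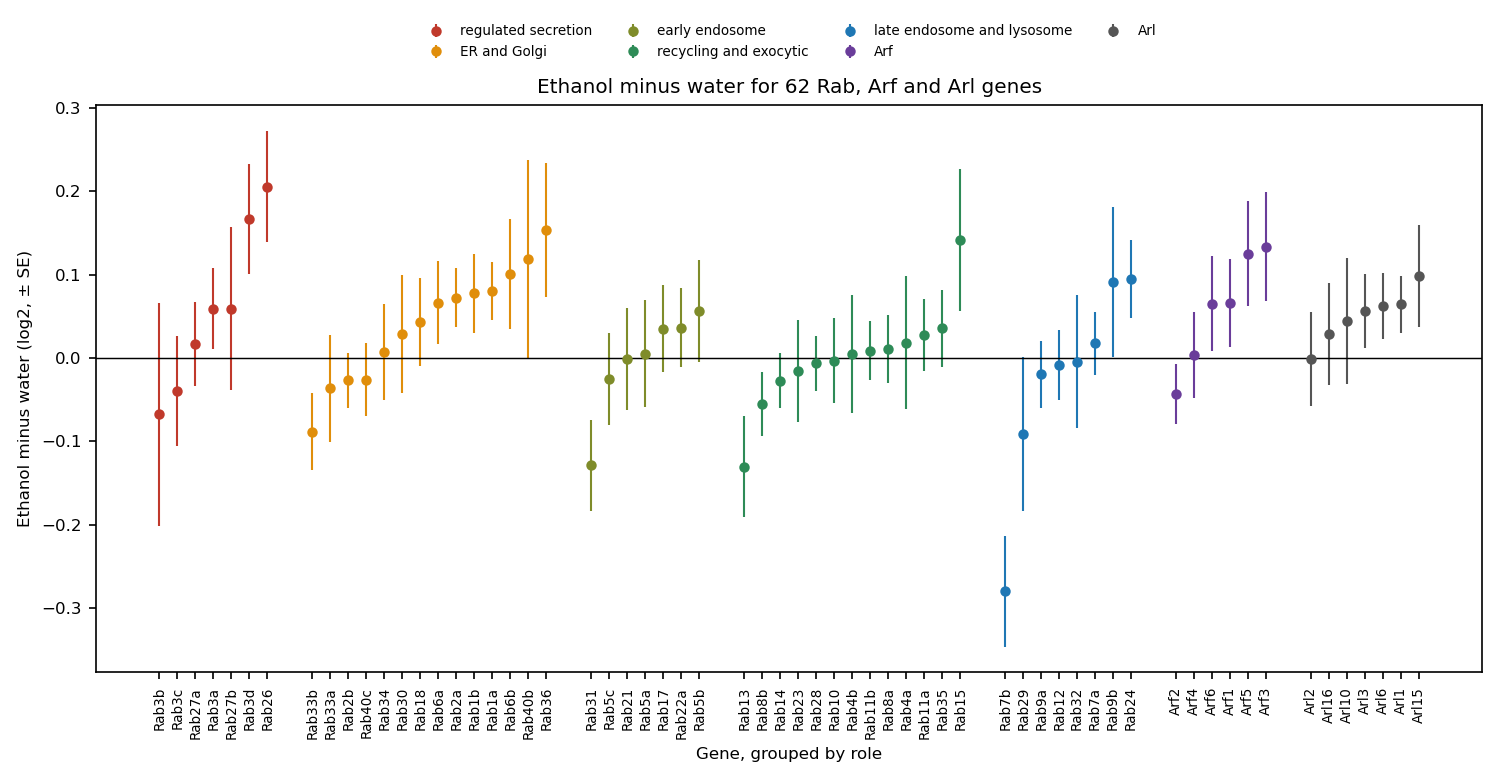
Ethanol minus water difference (log2, vertical axis) of the 62 measured members, ordered by difference within each role, with bars of 1 SE. Most points lie within 0.1 of zero, with Rab7b at -0.28 the lowest and Rab26 at 0.21 the highest.

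Among the GTPases of regulated secretion, Rab26 and Rab3d had the larger differences. Rab26 (probe set 1369004_at, chromosome 10), which resides on secretory granules and synaptic vesicles, ranged from 11.45 to 11.93 (median 11.70) with ethanol and from 11.33 to 11.72 (median 11.45) with water. The water mean was exceeded in 9 of 10 ethanol animals, and the groups overlapped. The difference was 0.21 (SE 0.066, limma adjusted p = 0.284), and within the runs it was 0.25, 0.33 and -0.13. Rab3d (1370055_at, chromosome 8), a granule protein best known from secretory cells outside the brain, ranged from 7.98 to 8.48 (median 8.27) with ethanol and from 7.82 to 8.29 (median 8.11) with water. In 5 ethanol animals it exceeded every water animal. Its difference was 0.17 (SE 0.066, limma adjusted p = 0.321), with 0.28, 0.24 and -0.20 in the runs and 0.09 with the myelin score in the model.

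On the probe set of highest mean the neuronal Rab3 genes differed less, but a further Rab3a probe set (1369816_at, described below) differed by 0.26. Rab3a (1391434_at), the main Rab of synaptic vesicles, ranged from 12.08 to 12.31 (median 12.25) with ethanol and from 11.85 to 12.31 (median 12.18) with water, a difference of 0.06 (SE 0.049, limma adjusted p = 0.610) that was 0.02 without water animal 18. Rab3b (1370061_at), which shares the vesicle role in some inhibitory and neuroendocrine cells, was the most variable member, with an SD within groups of 0.32. It ran from 9.39 to 10.60 (median 9.75) with ethanol and from 9.42 to 10.36 (median 9.89) with water, and its difference of -0.07 (SE 0.134, limma adjusted p = 0.857) split into -0.02, -0.46 and 0.62 in the runs. Rab3c (1387147_at), the remaining vesicle paralogue, ran from 7.32 to 7.71 (median 7.52) and from 7.28 to 7.79 (median 7.53), a difference of -0.04 (SE 0.066, limma adjusted p = 0.819). The granule-docking genes Rab27a and Rab27b differed by 0.02 and 0.06. The values of every Rab3 gene overlapped between the groups.

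In the ER and Golgi group, 10 of 14 differences were positive (71.4%, against 56.7% over the array with 1 probe set per gene). An unadjusted p under 0.05 was reached by 1 of the 14 (7.14%, against 12.1%). Rab1a (1398841_at, chromosome 14), which moves cargo from the ER to the Golgi, ranged from 13.45 to 13.69 (median 13.58) with ethanol and from 13.36 to 13.54 (median 13.51) with water. It was higher than every water animal in 7 of 10 ethanol animals. The difference was small, 0.08 (SE 0.035, limma adjusted p = 0.353), and it was positive in each run (0.09, 0.09 and 0.05). Its close paralogue Rab1b differed by 0.08, and 3 further probe sets that the annotation gives to both genes were not used, so the signals of the paralogues may not be separate. Rab2a, which acts in the same pathway, differed by 0.07, the retrograde Golgi genes Rab6a and Rab6b by 0.07 and 0.10, and Rab33b, which binds autophagy machinery, by -0.09.

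An unadjusted p under 0.05 was reached by 1 of 7 early endosome members (14.3%) and 1 of 13 recycling and exocytic members (7.69%). It was reached also by 1 of 8 late endosome and lysosome members (12.5%), against 12.1% over the array with 1 probe set per gene. Each of these members was lower with ethanol, as were 5.77% over the array by this criterion. Further probe sets of Rab5b, Rab11b, Rab12, Rab14 and Rab15, given below, were higher by the same criterion. Rab31 (1373894_at, chromosome 9), which carries cargo between the trans-Golgi network and endosomes, ranged from 10.47 to 10.88 (median 10.69) with ethanol and from 10.69 to 11.02 (median 10.78) with water. It was below every water animal in 5 ethanol animals, with a difference of -0.13 (SE 0.054, limma adjusted p = 0.345) and -0.09, -0.18 and -0.10 in the runs. A further Rab31 probe set past the filter (1370780_at) differed by -0.08 (SE 0.062, limma adjusted p = 0.579), with -0.06, -0.22 and 0.16 in the runs. The early endosome genes Rab5a, Rab5b and Rab5c differed by 0.01, 0.06 and -0.03, and Rab21, which recycles integrins, by -0.002. Rab13 (1388140_at, chromosome 2), known for delivery to cell junctions, ranged from 7.56 to 7.96 (median 7.78) with ethanol and from 7.57 to 8.16 (median 7.92) with water. Its difference was -0.13 (SE 0.061, limma adjusted p = 0.377), or -0.09, -0.22 and -0.04 in the runs. The recycling genes Rab11a and Rab11b differed by 0.03 and 0.01, the exocytic genes Rab8a and Rab10 by 0.01 and -0.003, and Rab15, which regulates early endocytic traffic, by 0.14 (SE 0.085).

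Rab7b (1385608_at), which works between late endosomes and the trans-Golgi network and whose promoter is shown above, had the largest difference of any measured member. It ranged from 7.77 to 8.25 (median 7.95) with ethanol and from 7.99 to 8.496 (median 8.22) with water. In 5 ethanol animals it was below every water animal, but the groups overlapped. The difference was -0.28 (SE 0.066, limma adjusted p = 0.174), which is 0.824-fold, and it was -0.28, -0.32 and -0.20 in the runs. A further Rab7b probe set below the filter differed by -0.26. The difference was -0.20 with the myelin score in the model. Its better known relative Rab7a, which brings late endosomes to lysosomes, differed by 0.02, and Rab9a and Rab9b, which return receptors to the Golgi, by -0.02 and 0.09.

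**Figure D2:**
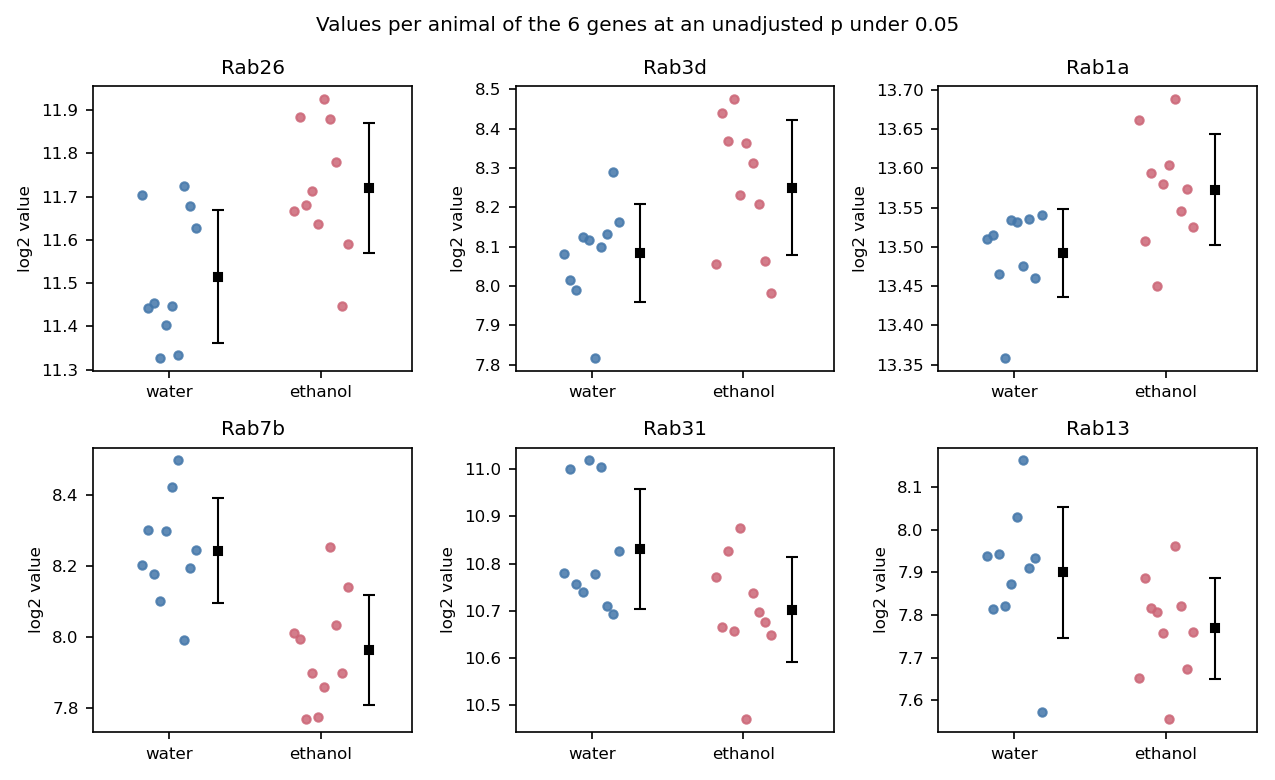
Log2 value of each animal (points) for the 6 members with an unadjusted p under 0.05, with group means and SD (squares and bars), 10 animals per group. In each panel the points of the groups overlap, and for Rab7b 5 ethanol animals lie below all water animals.

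Of the 6 Arf genes, 5 had a positive difference (83.3%, against 56.7% over the array with 1 probe set per gene). The sign of Arf4 turned with cyclic loess (-0.02), and none of the 6 had an unadjusted p under 0.05. Arf3 (1388997_at), a coat-recruiting GTPase of the Golgi that is abundant in brain, ranged from 13.83 to 14.42 (median 14.29) with ethanol and from 13.94 to 14.33 (median 14.10) with water, a difference of 0.13 (SE 0.066, limma adjusted p = 0.396). It exceeded the water mean in 9 ethanol animals, with ethanol animal 1 the lowest of all 20. Arf5 (1367748_at), which acts in the early secretory pathway, ran from 10.66 to 10.999 (median 10.89) and from 10.40 to 11.02 (median 10.83), a difference of 0.13 (SE 0.063, limma adjusted p = 0.405). Arf1 (1367459_at), the main recruiter of the COPI coat, ran from 13.19 to 13.48 (median 13.39) and from 12.96 to 13.48 (median 13.35), with a difference of 0.07 (SE 0.053, limma adjusted p = 0.597) that was 0.03 without water animal 15. On these probe sets each of the 3 genes was positive in the first and second runs and negative in the third. A further Arf1 probe set (1398817_at) differed by 0.23 (SE 0.119, limma adjusted p = 0.421), with 0.36, 0.17 and 0.07 in the runs.

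The other Arf genes lay closer together. Arf6 (1369998_at), which acts at the plasma membrane and in endosomal recycling, ranged from 9.28 to 9.58 (median 9.44) with ethanol and from 8.98 to 9.52 (median 9.39) with water, a difference of 0.06 (SE 0.057, limma adjusted p = 0.634) that was 0.02 without water animal 15. Arf2 (1388813_at), close to Arf1 in sequence, ran from 10.21 to 10.43 (median 10.34) and from 10.27 to 10.46 (median 10.36), differing by -0.04 (SE 0.036, limma adjusted p = 0.609). Its further probe set past the filter (1368946_at) had the opposite sign, 0.12 (SE 0.068, limma adjusted p = 0.450). Arf4 (1398758_at), of the same class as Arf5, ran from 12.03 to 12.43 (median 12.25) and from 12.02 to 12.51 (median 12.23), differing by 0.004 (SE 0.052, limma adjusted p = 0.983). In all of them the groups overlapped. Of the 7 Arl genes, 6 were positive (85.7%, against the same 56.7%), from Arl16 at 0.03 to Arl15 at 0.10. Arl2, which assists tubulin folding, was at -0.001.

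For 33 members the array holds several probe sets, and those not chosen tended to give more positive differences. This comparison was made after the values had been seen. Of 35 further probe sets past the filter, which belong to 28 genes, 11 (31.4%) were higher with ethanol at an unadjusted p under 0.05 and 0 were lower. Over all 3449 probe sets that are not the highest of their gene, the shares were 12.4% higher and 3.8% lower. The difference was positive for 26 of the 35 (74.3%, against 63.7% of the 3449). The median difference of the 35 was 0.12, against 0.03 over the 3449, and in 25 of the 35 pairs the further probe set gave the more positive difference. Some genes enter several of these pairs, and no such count was made over all genes. Over the whole array the probe sets of highest mean, 1 per gene, also had a smaller median (0.01) and a smaller share higher (6.33%) than the 3449. Limma called none of the 35 at an adjusted p under 0.05, with a smallest adjusted p of 0.160.

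The 11 belonged to 10 genes of several roles, and each was positive in all 3 runs. They were picked as higher over the same 20 arrays, so the signs within the runs are not independent support. Arf3 (1387447_at) had the smallest p. It ranged from 9.17 to 9.48 (median 9.31) with ethanol and from 8.83 to 9.38 (median 9.03) with water, a difference of 0.27 (SE 0.060, limma adjusted p = 0.160), against 0.13 in the probe set of highest mean. Without water animal 20 it was 0.30 with a limma adjusted p of 0.0391, so that the call turns on 1 array. Rab3a (1369816_at) followed, from 9.95 to 10.33 (median 10.16) with ethanol and from 9.59 to 10.08 (median 9.96) with water, a difference of 0.26 (SE 0.065, limma adjusted p = 0.182), against 0.06.

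The groups of both probe sets overlapped. Rab40b, a ubiquitin-ligase adaptor, had the largest difference of the 11 at 0.34. The others were Rab15 at 0.26 and 0.17, Rab11b at 0.24, Rab12 at 0.22, Arl1 at 0.20, Rab14 at 0.20, Rab5b at 0.18 and Rab1b at 0.13. With the probe sets of a gene averaged, 10 of 60 members rather than 3 of 62 were higher at an unadjusted p under 0.05. In that fit 1098 of 14676 entries (7.48%) were higher, and these mix gene averages with unaveraged probe sets that have no single symbol. A share over gene averages alone was not computed. The log2 ratio of 3′ to 5′ control signals, a measure of RNA integrity and labelling, was 1.17 ± 0.14 with ethanol and 1.22 ± 0.18 with water (SD, n = 10 per group). With this ratio in the model 10 further probe sets were higher, with the myelin score 16, and without the 3 arrays standing apart 7. The position of the probe sets along the transcripts was not used here, and its part in the result was not tested.

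**Figure D3:**
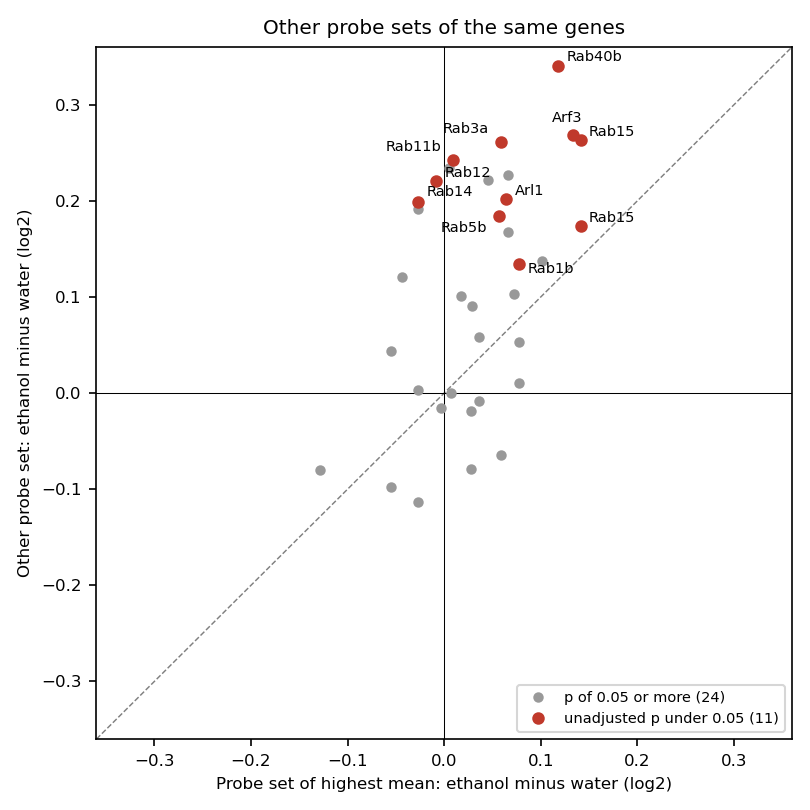
Ethanol minus water difference (log2) of 35 further probe sets (vertical axis) against that of the probe set of highest mean of the same gene (horizontal axis), with the line of equality dashed. All 11 red points, with an unadjusted p under 0.05, lie above the line and above zero.

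Myelin transcripts differed widely between animals, and several members varied with them. The myelin score, the mean of 18 measured myelin genes such as Mbp and Mog, ranged from 10.53 to 12.06 with ethanol (mean 11.42 ± 0.46) and from 11.17 to 12.31 with water (mean 11.77 ± 0.40, SD, n = 10). All 18 genes had a lower mean with ethanol. The difference of -0.35 did not pass a two-sided permutation test (p = 0.0852, adjusted p = 0.264 over 10 marker lists), and it was -0.32, -0.76 and 0.41 in the runs. The neuron score of 20 genes was 12.15 ± 0.12 with ethanol and 12.06 ± 0.11 with water (permutation p = 0.105), and the astrocyte score of 14 genes did not pass after adjustment (difference -0.11, permutation p = 0.0135, adjusted p = 0.135). None of the score genes is a member. Of the other 7 lists, which covered microglia, endothelium, choroid plexus, meninges and striatal, cortical and central amygdala neurons, choroid plexus had the smallest permutation p (4 of 9 genes measured, difference -1.42, p = 0.0612), and the part of these cells in the members' values was not tested.

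With group in the model, the slope on the myelin score passed the test for 16 of 62 members (25.8%), against 20% of all probe sets. In 13 of the 62 members the slope was positive (10.7% of all probe sets), and in 3 it was negative (9.31%). The positive members came from every role: Rab3b of regulated secretion, Rab18 and Rab33a of the ER and Golgi, Rab5a, Rab5b and Rab21 of early endosomes, Rab4a, Rab4b and Rab10 of recycling and exocytosis, Rab7b and Rab9a of late endosomes, and also Arf6 and Arl2. The negative members were Arf3, Rab3d and Arl3. The members are the highest probe set of each gene, and slope shares over the array on that basis were not computed. With the filter at the 60th percentile, which keeps higher means, the myelin slope passed for 13 of 53 members and for 2891 of 12417 probe sets. The part of expression level in the larger share of members was not tested. All slopes are log2 units of the gene per log2 unit of the score.

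Rab21 had the smallest p. It ranged from 10.92 to 11.35 over the 20 animals (median 11.18), with 10.92 in the animal of lowest myelin score and 11.16 in that of the highest. Its slope was 0.25 (SE 0.052, limma adjusted p = 0.00182), and 0.26 with the run as a block. Rab10, which carries exocytic vesicles and is known from axonal membrane supply, ranged from 12.11 to 12.58 (median 12.43), with a slope of 0.20 (SE 0.044, limma adjusted p = 0.00244). Its other probe set gave 0.35 (limma adjusted p = 8.8e-04). Rab4a, of the fast recycling route, ranged from 10.02 to 10.90 (median 10.47), with a slope of 0.32 (SE 0.070, limma adjusted p = 0.00294). Rab5a, which drives fusion of early endosomes, ranged from 11.77 to 12.26 (median 11.999), with a slope of 0.25 (SE 0.057, limma adjusted p = 0.0039) and 0.41 in its other probe set (limma adjusted p = 0.0435). The highest value of Rab21, Rab10 and Rab4a was that of ethanol animal 1, which had the highest myelin score of its group.

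Arf3 ran the other way. Over the animals it ranged from 13.83 to 14.42 (median 14.20), with 14.42 in ethanol animal 3, whose myelin score was the lowest, and 13.997 in water animal 18, whose score was the highest. Its slope was -0.23 (SE 0.064, limma adjusted p = 0.0168), but -0.03 in its other probe set (limma adjusted p = 0.787), and the call was lost without ethanol animal 1 (-0.16, limma adjusted p = 0.0636). The slope of Rab3d was -0.22 (SE 0.065, limma adjusted p = 0.0225), lost without ethanol animal 1, water animal 17 or water animal 20. That of Arl3, which releases lipid-modified cargo in cilia, was -0.14 (SE 0.044, limma adjusted p = 0.0267), lost without ethanol animal 1, ethanol animal 3 or water animal 20. With the myelin score in the model the ethanol difference was 0.05 for Arf3, 0.09 for Rab3d, 0.16 for Rab26, 0.10 for Rab1a, -0.11 for Rab31 and -0.12 for Rab13.

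**Figure D4:**
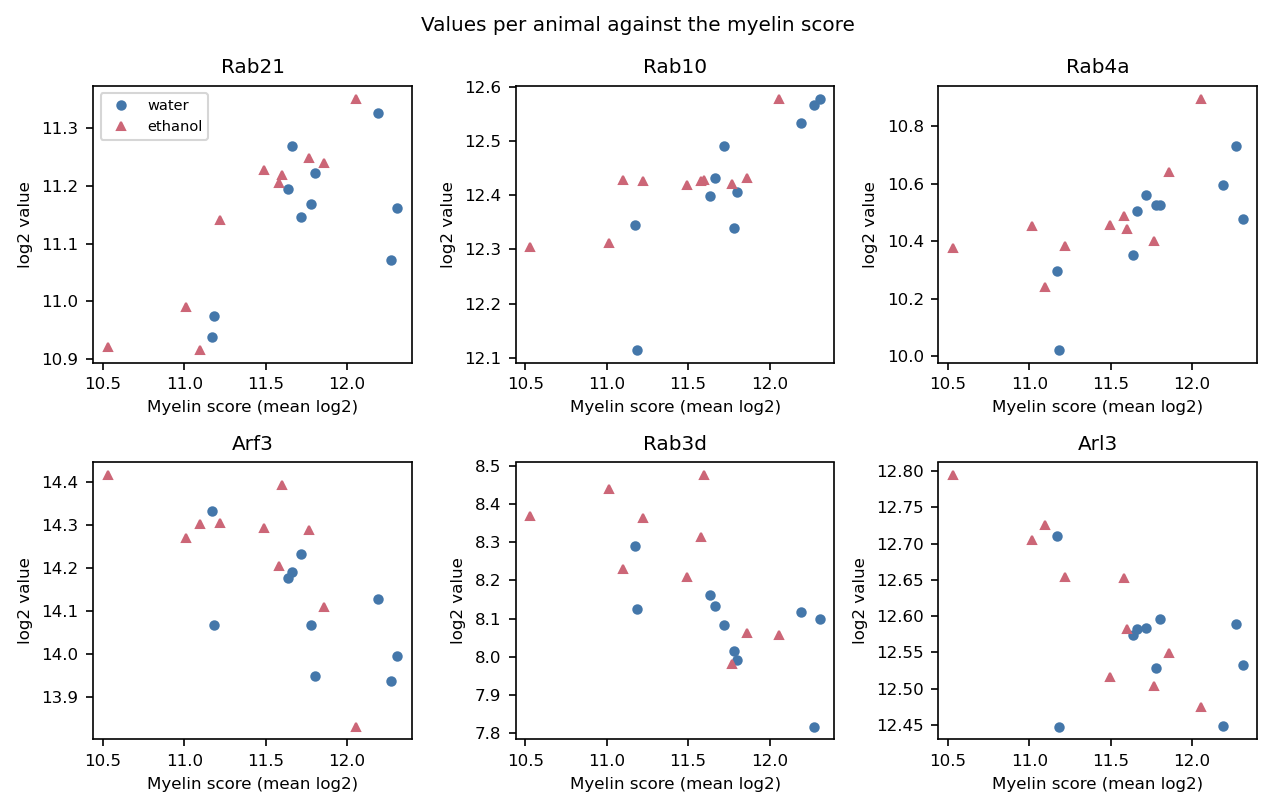
Log2 value of each animal against its myelin score (mean log2 of 18 genes), for 3 members with positive slopes (top) and the 3 with negative slopes (bottom). Triangles are ethanol and circles water; values tend to climb with the score for Rab21, Rab10 and Rab4a and to decline for Arf3, Rab3d and Arl3.

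The call held for 7 of the 16 when any single animal was left out: Rab21, Rab10, Rab4a, Rab5a, Rab33a, Rab9a and Arl2. Of these, Rab33a, Rab9a and Arl2 lost it without the 3 arrays standing apart (limma adjusted p = 0.0502, 0.0530 and 0.0717). Without those arrays 9 members were called, and without ethanol animal 1 the count was 9. Rab7b had a slope of 0.22 (SE 0.066, limma adjusted p = 0.0222) that no longer passed when ethanol animal 3 or water animal 18 was left out, and Rab18 (0.18) was lost without ethanol animal 3. Arf6 (0.18), Rab4b (0.22), Rab3b (0.43) and Rab5b (0.18) were each lost in 3 or more of the leave-outs. With the run as a block 13 members were called, and Rab7b (limma adjusted p = 0.0507), Arf6 (0.0722) and Rab5b (0.0704) were not. Over all probe sets 3123 were then called.

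On the neuron score the slope passed for 3 of 62 members (4.84%, against 5.75% of all probe sets), all positive, where 3.16% of all probe sets were called as positive and 2.59% as negative. Rab6b, a brain-enriched Golgi GTPase, ranged from 12.80 to 13.31 (median 13.10), with a slope of 1.003 (SE 0.194, limma adjusted p = 0.00544), and its call held without any single animal. Rab3a ranged from 11.85 to 12.31 (median 12.21), with a slope of 0.64 (SE 0.166, limma adjusted p = 0.0256), which was 0.40 without water animal 18 and was also lost without ethanol animal 5. Rab6a had a slope of 0.62 (SE 0.176, limma adjusted p = 0.0423), lost in 11 of the leave-outs and with the run as a block (limma adjusted p = 0.0659). The lowest values of Rab6b and Rab3a were those of water animal 18, which stood apart, and without the 3 such arrays none of the 62 was called. Over all 18625 probe sets 272 were then called, against 1071 as reported.

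**Figure D5:**
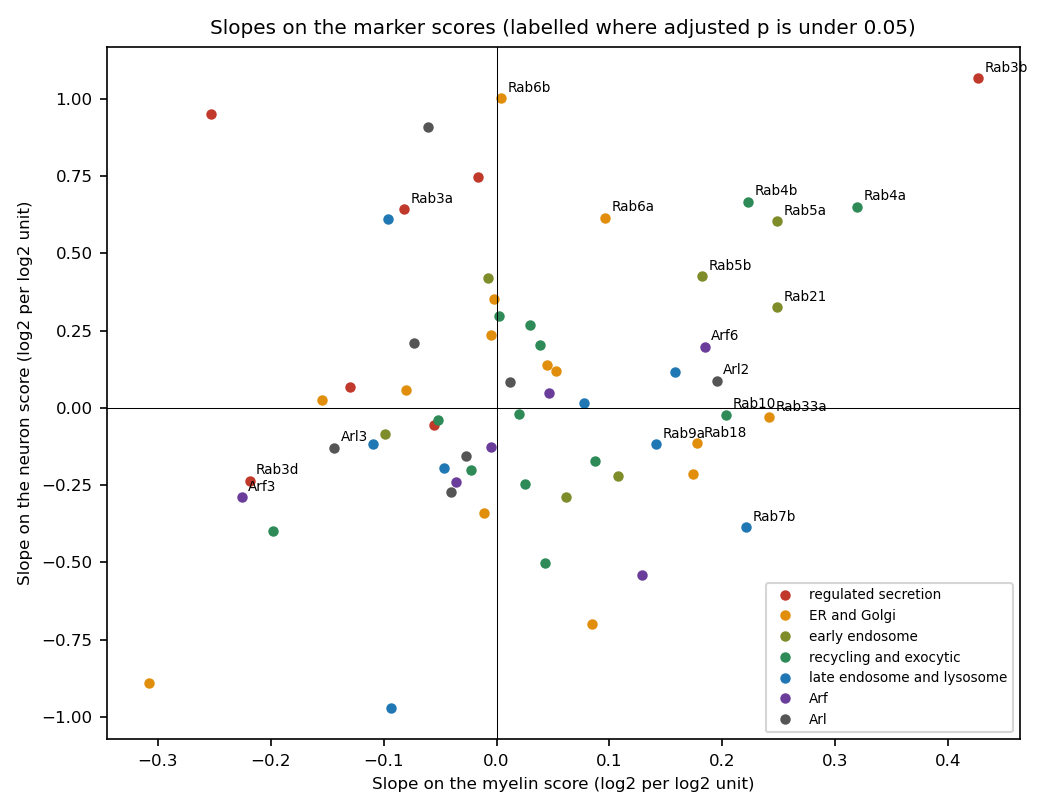
Slope of each of the 62 members on the neuron score (vertical axis) against its slope on the myelin score (horizontal axis), each from a model with group, coloured by role. Labelled members passed the test for at least 1 of the scores, with Rab6b, Rab3a and Rab6a for the neuron score and 16 for the myelin score.

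The regulators and effectors of these GTPases were followed in 7 lists, of which 145 of 186 genes were measured. Limma called 0 at an adjusted p under 0.05, and at an unadjusted p under 0.05 there were 5 higher and 7 lower. That share of 8.28% was below the 12.8% of all probe sets and the 12.1% with 1 probe set per gene. Rab escort and recycling had Rabggta, a subunit of the enzyme that lipidates Rab proteins, at 0.12 and Chm, the escort protein that presents them to it, at -0.16, each with an unadjusted p under 0.05 among 5 measured. Of 20 exchange factors of Rab proteins 1 was lower, the Rab5 activator Rin2 at -0.14. Of 28 GTPase-activating proteins of Rab proteins 1 was higher and 2 were lower, among them Tbc1d8 at 0.13, Tbc1d12 at -0.32 and Usp6nl at -0.15. The Rab effector Micall1 of recycling endosomes was at -0.37 (SE 0.155, limma adjusted p = 0.342), the only one of 26 effectors with an unadjusted p under 0.05.

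On the Arf side, Psd, an exchange factor for Arf6, differed by 0.24, with 0 of 11 exchange factors at an unadjusted p under 0.05. Among 20 GTPase-activating proteins of Arf, Agap3 at 0.16 and Smap2 at 0.10 were higher and Arap1 at -0.13 was lower by this criterion. Among 35 coat and effector genes the clathrin adaptor subunit Ap1b1 was higher at 0.11 and the COPI subunit Copz1 lower at -0.14 (SE 0.040, limma adjusted p = 0.239). Of the regulators named here, Tbc1d12, Micall1, Tbc1d8 and Agap3 were called on the myelin score, with slopes of 0.55, 0.84, -0.18 and -0.22. Over the 145 genes 16 had a positive and 9 a negative slope on the myelin score (17.2%, against 20% of all probe sets), and 6 and 5 on the neuron score (7.59%, against 5.75%).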

How the data were processed

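Expression was measured on Affymetrix rat arrays, 1 per animal, in 10 ethanol and 10 water animals, from RNA labelled with biotin by the 3′ IVT Express method, per the labels' protocols. The authors deposited log2 summaries per probe set, computed by RMA (robust multi-array average, version unstated) per the submitters' processing notes, with the log base inferred from the range. Which filters and test the authors applied is not stated in the labels.

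There were 31099 probe sets, including 57 controls. A filter kept the 18625 whose mean over the 20 arrays exceeded the 40th percentile of non-control probe sets. Ethanol minus water, and slopes on marker scores with group as a covariate, were fitted over all of them with limma 3.58.1 (lmFit and eBayes, R 4.3.3). Tests were two-sided, and p-values were adjusted by Benjamini-Hochberg over all 18625 with a threshold of 0.05. Scores are means of marker genes per array, and their group differences were tested with 100000 permutations. The number of arrays limits the precision: the median SE of a member's difference was 0.0548. The fit was tested on simulated data.

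The members and lists were chosen with earlier results of these data known. Named were up to 8 members per direction by unadjusted p under 0.05, all Rab3 and Arf genes, up to 4 members per direction by slope, and from each regulator list up to 2 genes per direction or else the one with the smallest p. Other members are given by difference or count. The labels do not say whether each animal was extracted or reared separately, so p-values measure the spread between these arrays. The alternatives were other filters, scalings, weights and variance priors, the accession run as a block, marker scores or the 3′ to 5′ ratio as covariates, averaged probe sets and leaving out arrays. The count over further probe sets was added after seeing the data.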

Additional observations from a re-analysis of the deposited data

Results flagged for a closer look

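In 10 of the 56 groups of 10 animals checked, 1 animal lay far from the others, measured as its gap to the nearest animal divided by the range of the group, where chance alone marks about 1 group in 20. Water animal 15 was lowest for Rab1a (0.559 of the range, log2 13.36), Arf6 (0.536, log2 8.98) and Rab10 (0.488, log2 12.11). Ethanol animal 1 was lowest for Arf1 (0.577, log2 13.19), Arf3 (0.474, log2 13.83) and Arf5 (0.561, log2 10.66), and highest for Rab10 (0.532, log2 12.58). Water animal 18 was lowest for Rab3a (0.568, log2 11.85) and for the neuron score (0.497, log2 11.79). Ethanol animal 5 was highest for Rab34 (0.495, log2 10.38), a Golgi GTPase. Water animals 15 and 18 and ethanol animal 5 are the arrays that stood apart over all probe sets, and ethanol animal 1 had the highest myelin score of the ethanol group.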

How the results depend on the processing

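No paired analysis was possible because no animal number occurs in both groups. Under every alternative run, 0 members passed the adjusted threshold on their chosen probe set in the ethanol comparison, and the named ethanol differences kept their sign except those below, while 24 of the 28 moved by over 1.5 times in size under at least 1 alternative. The count of members higher at an unadjusted p under 0.05, 3 as reported, was 5 with median centring, 6 with array weights, 5 with a trended and robust variance prior, 6 with the myelin or the neuron score as a covariate and 10 with averaged probe sets. The count lower, also 3, was 1 with the filter at the 60th percentile and 1 with the myelin score. Over all 18625 probe sets 1373 were higher as reported. There were 1560 with median centring, 1823 with array weights, 1400 with the trended prior, 1500 with the myelin score and 1027 with the neuron score. The count lower over all probe sets was 1020, with 873 under the myelin score and 654 of 12417 under the filter at the 60th percentile. Leaving out each animal gave 0 to 0 adjusted calls, 2 to 7 higher (7 without ethanol animal 1 or water animal 20, 6 without water animal 12 or 19 or ethanol animal 9, 5 without ethanol animal 10) and 1 to 4 lower (1 without ethanol animal 6), 36 to 44 positive and medians of 0.01 to 0.03. Over all probe sets the leave-outs gave 1057 to 1672 higher and 788 to 1377 lower. Myelin slopes numbered 9 with the 3′ to 5′ ratio and 9 without the 3 arrays standing apart, and 9 to 17 in the leave-outs, lowest without ethanol animal 1. Over all probe sets they numbered 2236 with the ratio, 3141 without the 3 arrays and 2987 to 4145 in the leave-outs, against 3721 as reported. Neuron slopes numbered 5 with the stricter filter, 1 with array weights, 5 with the trended prior, 7 with both scores and 0 without the 3 arrays, and 1 to 5 in the leave-outs, 1 without ethanol animal 5 and 5 without water animal 14 or 16 or ethanol animal 10. Over all probe sets, 1071 as reported, these numbered 861 of 12417 with the stricter filter, 404 with array weights and 1138 with the trended prior. They numbered 1751 with both scores, 272 without the 3 arrays and 374 to 1286 in the leave-outs. The further probe sets higher numbered 7 without the 3 arrays and 9 to 15 in the leave-outs. Signs turned for Arf2 (0.046) and Copz1 (0.0017) with averaged probe sets, Rab3a with the neuron score (-0.00028), Rab3b with the myelin score (0.082) and Rab3c with array weights (0.00065). With averaged probe sets Rab3a was 0.16, against 0.06 as reported. Among differences past an unadjusted p of 0.05, Chm was -0.008 with averaged probe sets, Rab1a 0.05 and Rab13 -0.07 with array weights, Rab13 -0.08 with the neuron score, and Rab3d 0.09, Tbc1d12 -0.13 and Micall1 -0.08 with the myelin score. Arf4 was -0.0203 with cyclic loess, -0.0104 with the 3′ to 5′ ratio, -0.0106 without the 3 arrays and -0.0203 to 0.0344 in the leave-outs. Where not shown by fewer arrays or probe sets, the cause was not tested.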
